A study of Mus musculus with 4 samples.

Results

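The genes of the proteasome were examined in the polyadenylated RNA of 4 unmanipulated mouse hearts. Members were all entries whose symbol begins with Psm, a letter from a to g and a digit, which gave 49 of the 23420 genes counted. Of these, 48 encode subunits, activators, an inhibitor or assembly factors of the proteasome. The remaining entry, Psmc3ip, shares only the start of its name and encodes a partner of the meiotic recombinases. Each heart is labelled as wild-type C57BL/6J, male and 12 weeks old. There is a single group, with no treated, mutant or control animals. The label for tissue names the whole heart, while the labels' protocols state that the ventricular apex was frozen.

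The proteasome is the barrel-shaped protease that degrades ubiquitin-tagged proteins in the cytosol and nucleus. Its 20S core stacks 2 outer rings of alpha subunits (Psma genes), which gate the barrel, on 2 inner rings of beta subunits (Psmb genes), of which Psmb5, Psmb6 and Psmb7 carry the constitutive catalytic sites. The 19S cap, made of ATPases (Psmc genes) and non-ATPase subunits (Psmd genes), binds and unfolds substrates, and other caps (Psme genes) open the core without ATP. Interferon-gamma induces the subunits Psmb8, Psmb9 and Psmb10, which replace the constitutive catalytic subunits in new cores to form the immunoproteasome. In cardiac muscle, whose sarcomeres are renewed throughout life, the proteasome is known for the turnover of myofibrillar proteins.

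Libraries 1 to 4, called hearts 1 to 4 after the submitters' numbers, held between 10523709 and 15359296 reads assigned to genes. Hearts 2 and 3 had 1897 and 1806 counts of Xist and at most 1 count each of Ddx3y, Kdm5d and Eif2s3y, and so went against their male label. Hearts 1 and 4 did not, with 5 and 19 counts of Xist. Each pair of libraries differed by more than counting error, with a chi-square per degree of freedom of 2.22 to 12.6 over all genes and 1.53 to 5.46 over the proteasome genes. The cardiomyocyte genes Myh6, Actc1, Tnnt2, Myl2 and Mb summed to between 87061 and 96638 counts per 1000000 gene counts (CPM), so the defining markers of heart muscle were present. Whether the libraries came from separate animals is not spelled out in the labels, and the p-values below measure only the spread between these samples, which may be technical.

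Levels of the constitutive and inducible catalytic subunits are compared further below, so the promoter windows of the Psmb8 and Psmb9 pairs are shown. They run from 250 bases before to 50 bases after the RefSeq start (build GRCm38.p6, the assembly that mm10 denotes). Capitals mark matches on either strand to TGACNNNGC, the core of the antioxidant response element bound by the proteasome regulator Nfe2l1 (Nrf1), to GAAA, any 2 bases and GAAA, an interferon-stimulated response element pattern, or to TTCNNNGAA, a STAT site pattern. The window of the inducible gene Psmb8 lies at chr17:34197945-34198244 on the plus strand and that of its constitutive counterpart Psmb5 at chr14:54617946-54618245 on the minus strand. The window of Psmb9 lies at chr17:34187281-34187580 on the minus strand and that of its counterpart Psmb6 at chr11:70525107-70525406 on the plus strand.
Psmb8: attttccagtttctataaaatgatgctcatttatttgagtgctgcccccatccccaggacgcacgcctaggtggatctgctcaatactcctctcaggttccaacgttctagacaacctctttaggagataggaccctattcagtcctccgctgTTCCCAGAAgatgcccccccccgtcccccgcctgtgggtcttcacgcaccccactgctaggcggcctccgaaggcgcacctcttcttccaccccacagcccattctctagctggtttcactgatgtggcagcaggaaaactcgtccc
Psmb5: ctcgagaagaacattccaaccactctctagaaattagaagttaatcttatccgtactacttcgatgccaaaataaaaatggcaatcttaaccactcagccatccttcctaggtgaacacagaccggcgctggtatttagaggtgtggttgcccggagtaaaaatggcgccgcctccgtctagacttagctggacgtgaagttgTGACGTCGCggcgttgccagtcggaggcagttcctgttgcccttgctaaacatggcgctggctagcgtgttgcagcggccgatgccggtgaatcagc
Psmb9: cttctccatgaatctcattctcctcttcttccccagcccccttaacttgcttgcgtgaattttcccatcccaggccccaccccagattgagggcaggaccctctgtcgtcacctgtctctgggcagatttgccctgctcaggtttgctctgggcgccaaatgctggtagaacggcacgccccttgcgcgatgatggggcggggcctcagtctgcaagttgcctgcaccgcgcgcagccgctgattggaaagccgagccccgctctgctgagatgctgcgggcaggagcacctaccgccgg
Psmb6: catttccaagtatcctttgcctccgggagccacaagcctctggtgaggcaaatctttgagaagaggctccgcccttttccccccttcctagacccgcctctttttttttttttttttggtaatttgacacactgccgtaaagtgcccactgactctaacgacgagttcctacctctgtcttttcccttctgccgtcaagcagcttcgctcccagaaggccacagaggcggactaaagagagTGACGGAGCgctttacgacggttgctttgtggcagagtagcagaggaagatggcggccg
The Psmb5 window held the antioxidant core at 47 bases before the RefSeq start and the Psmb6 window at 9 bases before it. The Psmb8 window held a STAT pattern at 97 bases before the RefSeq start. The Psmb9 window held none of the patterns, which says only that these letters are not in it. Windows were listed for 41 of the 49 genes, 44 windows in all. The antioxidant core was present in 6 of the 44 windows (13.6%), those of Psmb5, Psmb6, Psmc6, Psmd9, Psmd12 and Psme4, and in 12.4% of 32851 promoter windows genome-wide. The interferon pattern was present in 5 of the 44 (11.4%) and in 3.44% of all windows. It was found at Psmb3, Psmd4, Psmd9, Psme1 and Psmg4, and at none of the inducible subunits. The STAT pattern was present in 3 of the 44 (6.82%), those of Psmb8, Psmd2 and Psmg1, and in 8.30% of all windows.

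Proteasome transcripts were broadly detected and nearly equal in total between hearts. The 49 genes summed to 2881, 2798, 2802 and 2924 CPM in hearts 1 to 4, or 2851 ± 61.8 CPM (SD, n = 4), which is 0.285 ± 0.00618% of all gene counts. A total of 48 of the 49 (98.0%) averaged at least 1 CPM, as did 52.8% of all genes counted. The median member stood at 41.9 CPM, and 36 members reached 20 CPM. The 19S cap subunits held 53.2% of the sum, the constitutive 20S core 30.6%, the activators 10.8% and the inducible subunits 2.17%. Rn45s, the ribosomal RNA precursor, took 12.7 ± 0.954% of gene counts, and with it left out of the totals the sum was 3268 CPM.

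Levels of different genes are given below as CPM per kilobase of the principal messenger RNA of each gene in GENCODE M21, since longer transcripts yield more reads. In the alpha ring, which holds 7 subunits, these levels ranged from 7.95 for Psma3 to 70.5 for Psma7. Psma7 had 72.3, 69.6, 68.9 and 71.2 CPM per kilobase in hearts 1 to 4, above every other alpha subunit in each heart. Psma3 had 8.14, 7.32, 7.88 and 8.46 CPM per kilobase, below every other alpha subunit in each heart. Psma6, Psma4 and Psma1 followed Psma7 at 39.8, 34.7 and 33.5 CPM per kilobase and overlapped between neighbours. The Psma3 count is uncertain, because 3 annotated pseudogenes match its transcript at 95% identity or more and reads that align equally well to several places are not assigned to genes. Its principal transcript is also long for its coding part, and per coding kilobase Psma3 was still the lowest alpha subunit, at 29.6 against a ring median of 51.6 CPM.

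Beta ring transcripts were higher, although the rings hold equal numbers of subunits. The constitutive beta subunits summed to 594 ± 18.6 CPM and the alpha subunits to 279 ± 16.3 CPM (SD, n = 4). Per kilobase the beta subunits ranged from 42.8 to 138 CPM with a median of 86.8, against a median of 33.5 for the alpha subunits. By mean level Psma7 was the only alpha subunit above the lowest beta subunit, although Psma6 exceeded Psmb1 in hearts 3 and 4 (43.6 and 44.4 against 43.3 and 43.3 CPM per kilobase). Psmb6, which carries the caspase-like site, was the highest of all members per kilobase of mRNA at 151, 116, 143 and 142 CPM per kilobase in hearts 1 to 4, with heart 2 lowest. Psmb1, a beta subunit without catalytic activity, was lowest at 44.4, 40.2, 43.3 and 43.3 CPM per kilobase. Between them Psmb2, Psmb7, Psmb3, Psmb5 and Psmb4 stood at 112, 95.8, 86.8, 67.6 and 63.1 CPM per kilobase, and 4 of the 6 neighbouring pairs of the ring overlapped between hearts. Per coding kilobase the beta ring ranged from 76.8 (Psmb5) to 159 (Psmb2) CPM and Psmb1 reached 105, so the order within the ring depends on the length used. Close annotated pseudogenes, which make a count uncertain in the same way as for Psma3, were also found for Psma4, Psma5, Psmb3, Psmb5, Psmc1, Psmd2 and Psmd11.

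**Figure D1:**
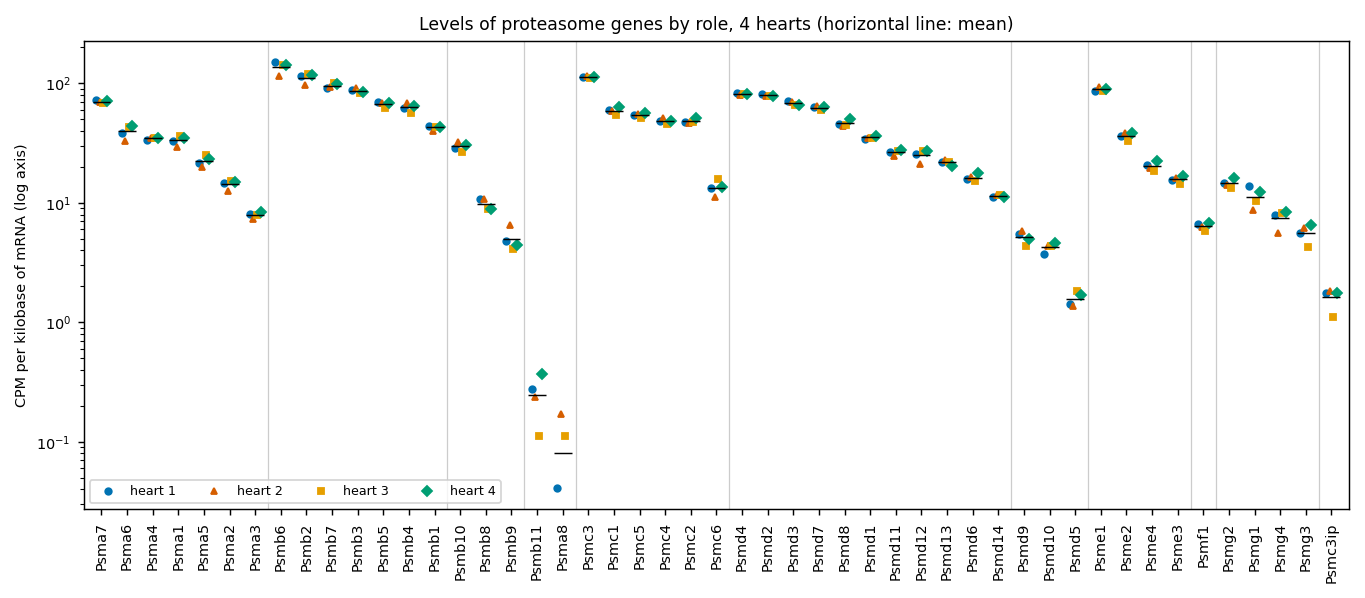
Level of each proteasome gene in CPM per kilobase of mRNA on a log axis, with a point for each of the 4 hearts and a line at the mean; genes are grouped by role, from alpha ring to the name match Psmc3ip, and heart 4 is missing for Psma8, which had 0 counts there. Psmb6 is highest at a mean of 138 and the restricted genes Psmb11 and Psma8 are lowest, while the points of most subunits lie close together.

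Among the 6 ATPases of the 19S base, Psmc3 stood apart at the top and Psmc6 at the bottom. Psmc3 had 114, 114, 111 and 114 CPM per kilobase in hearts 1 to 4 and a coefficient of variation (CV) of 1.40%. Psmc6 had 13.3, 11.3, 15.7 and 13.5 CPM per kilobase, with heart 3 highest and heart 2 lowest. Psmc1, Psmc5, Psmc4 and Psmc2 lay between 48.1 and 58.9 CPM per kilobase. Psmc6 was again the lowest ATPase per coding kilobase, at 25.8 against 55.9 CPM for the next, Psmc4, and had no close annotated pseudogene.

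The 11 non-ATPase subunits that match the symbol rule ranged from 11.4 to 81.8 CPM per kilobase. Psmd4, a ubiquitin receptor of the cap, had 83.9, 80.1, 82.2 and 81.2 CPM per kilobase in hearts 1 to 4. Psmd2, a large scaffold subunit of the base, followed at 81.8, 79.1, 78.5 and 78.6 CPM per kilobase, and its range overlapped that of Psmd4. Psmd14, the deubiquitinase that removes ubiquitin chains from substrates, was lowest at 11.3, 11.7, 11.7 and 11.1 CPM per kilobase. Its inactive partner in the lid, Psmd7, stood at 62.8 CPM per kilobase, well above it in every heart. Psmd14 was the lowest per coding kilobase too, at 18.9 CPM, where Psmd7 was the highest at 103 CPM. Per gene rather than per length, Psmd2 gave the most reads of any member, at 235 ± 4.64 CPM (SD, n = 4).

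The assembly factors that match the symbol rule lay at or below the low end of the subunits per kilobase of mRNA. Per kilobase of mRNA the 19S chaperones stood at 1.58 to 5.16 CPM, below every 19S subunit (lowest 11.4), although per coding kilobase Psmd9 at 20.1 CPM exceeded Psmd14 at 18.9 CPM. The 20S chaperones stood at 5.64 to 14.6 CPM per kilobase of mRNA and overlapped the lowest core subunits, Psma3 at 7.95 and Psma2 at 14.3. That overlap depends on the length used. Per coding kilobase they stood at 11.3 to 19.6 CPM, below every constitutive core subunit (lowest Psma3 at 29.6), and Psma2 reached 59.5 CPM. The 19S chaperones Psmd5, Psmd9 and Psmd10, which guide assembly of the ATPase ring, had 1.58 ± 0.221, 5.16 ± 0.615 and 4.27 ± 0.383 CPM per kilobase (SD, n = 4). Psmd9 is uncertain, since 25.5% of its exon bases are shared with the opposite-strand gene Gm26745 and the libraries did not keep the strand. In CPM, Psmd5 had 6.24, 6.03, 8.08 and 7.42 in hearts 1 to 4. The 20S chaperones work as dimers, Psmg1 with Psmg2 and Psmg3 with Psmg4, and seed the alpha ring. Psmg1 had 13.9, 8.67, 10.3 and 12.3 CPM per kilobase in hearts 1 to 4, with heart 2 lowest, and Psmg2 had 14.7, 14.2, 13.3 and 16.2. Psmg3 averaged 5.64 CPM per kilobase and had 4.93, 5.46, 3.80 and 5.73 CPM, lowest in heart 3. Psmg4 averaged 7.53 CPM per kilobase and had 4.44, 3.09, 4.56 and 4.62 CPM, lowest in heart 2. These genes rest on 40 to 264 reads per heart, so their spread includes sizeable counting error.

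Within the chaperone dimers Psmg1 was 1.31-fold lower than Psmg2 and Psmg3 was 1.34-fold lower than Psmg4. The log2 ratio per kilobase of Psmg1 over Psmg2 was -0.39 ± 0.26 (SD, n = 4), negative in 4 of 4 hearts, but -0.04 and negative in 3 of 4 hearts per kilobase of merged exons. That of Psmg3 over Psmg4 was -0.42 ± 0.44, negative in 3 of 4 hearts, and its sign turned when counts were not divided by length (0.25) or were divided by coding length (0.26). In an exact sign-flip permutation test over hearts, two-sided, p was 0.125 for the first and 0.25 for the second (Benjamini-Hochberg adjusted over 7 pairs, 0.146 and 0.25). With 4 hearts the smallest p this test can give is 0.125, so no pair here could pass 0.05.

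The activators differed widely from each other and little between hearts. Psme1 (PA28 alpha), an interferon-inducible cap subunit, had 87.2, 93.6, 86.6 and 90.1 CPM per kilobase in hearts 1 to 4. Its ring partner Psme2 (PA28 beta) had 36.6, 38.6, 33.0 and 38.2 CPM per kilobase, below Psme1 in every heart without overlap. Psme1 exceeded Psme2 by 2.44-fold per kilobase, a log2 ratio of 1.29 ± 0.07 (SD, n = 4, positive in 4 of 4 hearts, exact sign-flip permutation p = 0.125, adjusted 0.146). The nuclear activator Psme4 (PA200) had 20.9, 19.5, 18.5 and 22.4 CPM per kilobase and the nuclear PA28 gamma gene Psme3 had 15.5, 16.1, 14.5 and 16.8. Their log2 ratio of 0.37 ± 0.07 was positive in 4 of 4 hearts per kilobase of mRNA and turned to -1.21 per coding kilobase, so which is higher depends on the length used. The inhibitor Psmf1 (PI31), named for blocking the core in vitro, had 6.67, 6.34, 5.86 and 6.79 CPM per kilobase.

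The inducible catalytic subunits were all present and each was far below the constitutive subunit whose place it takes. Psmb8 had 10.9, 10.8, 8.87 and 8.96 CPM per kilobase in hearts 1 to 4, against 70.6, 68.8, 62.4 and 68.8 for Psmb5, both of which carry the chymotrypsin-like site. Psmb9 had 4.77, 6.59, 4.15 and 4.48 CPM per kilobase, against 151, 116, 143 and 142 for Psmb6. Psmb10 had 28.7, 32.7, 26.8 and 30.6 CPM per kilobase, against 91.8, 93.0, 99.9 and 98.5 for Psmb7, whose site is trypsin-like. The ranges of the partners did not overlap in any of the pairs.

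The size of the gap differed from site to site. Psmb9 was 27.8-fold lower than Psmb6, a log2 ratio of -4.79 ± 0.45 (SD, n = 4). Psmb8 was 6.86-fold lower than Psmb5 (-2.78 ± 0.12), and Psmb10 was 3.23-fold lower than Psmb7 (-1.69 ± 0.16). Each ratio was negative in 4 of 4 hearts and had the smallest p the exact sign-flip permutation test allows, 0.125 (adjusted 0.146 over 7 pairs). The order of the gaps was the same in every heart. Without hearts 2 and 3, which went against their label, the log2 ratios were -4.98, -2.82 and -1.68 in the same order of genes. Their sizes depend on length: per coding kilobase the folds were 15.1, 3.96 and 2.82, and per kilobase of all annotated exon bases the log2 ratios were -5.00, -3.83 and -0.51. Psmb5 is uncertain for another reason, since the annotated pseudogene Gm3375 matches 796 bases of its transcript at 98.9% identity. Exon bases shared with opposite-strand genes made up 14.7% for Psmb8, 11.8% for Psmb7 and 5.79% for Psmb9, and 12.1% of those of Psmb5 are shared with the microRNA gene Mir686. Psmb10 shares none.

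**Figure D2:**
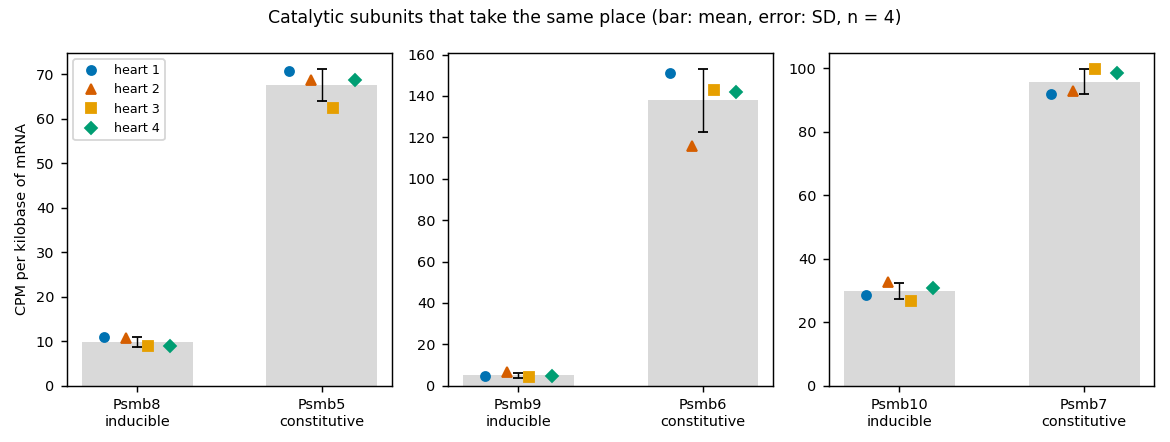
CPM per kilobase of mRNA for each inducible catalytic subunit and the constitutive subunit it replaces, with a point for each of the 4 hearts, a bar at the mean and an error bar of 1 SD. The inducible genes reach at most 10.9 (Psmb8), 6.59 (Psmb9) and 32.7 (Psmb10), against at least 62.4 (Psmb5), 116 (Psmb6) and 91.8 (Psmb7).

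Summed per kilobase, inducible subunits made up 12.9 ± 1.63% of the transcripts of the 6 catalytic subunits and 2.34 ± 0.243% of all proteasome transcripts (SD, n = 4). By site, the inducible form made up 12.7 ± 0.936% of Psmb8 plus Psmb5, 3.58 ± 1.21% of Psmb9 plus Psmb6 and 23.7 ± 1.98% of Psmb10 plus Psmb7. Per coding kilobase these shares were 20.2 ± 1.36%, 6.39 ± 2.07% and 26.2 ± 2.12%, and the share of the 6 catalytic subunits was 17.5 ± 2.09%. The catalytic share was 12.4, 15.3, 11.5 and 12.5% in hearts 1 to 4, highest in heart 2. In RNA of a whole tissue, fewer cells of a type and less RNA per cell cannot be told apart, and these shares do not say which cells held the inducible subunits. Leukocyte and macrophage markers were present, with 10 of 11 at 1 CPM or more, none at 0 and a sum of 564 to 629 CPM, as were all 5 endothelial markers, with a sum of 913 to 969 CPM. Their part in the inducible levels was not tested.

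Psmb8 and Psmb9 lie beside the peptide transporter genes Tap1 and Tap2 in the major histocompatibility complex on chromosome 17, and the order along the chromosome is Psmb9, Tap1, Psmb8 and Tap2. In GENCODE M21 on GRCm38, Psmb9 spans 34181987 to 34187764 on the minus strand and Tap1 34187553 to 34197225 on the plus strand, so that their exons share 212 bases, whose reads cannot be told apart without strand. Psmb8 (34197721 to 34201454) starts 495 bases after Tap1 ends. The promoter windows shown above for Psmb8 and Psmb9 were set on RefSeq starts further downstream. Both windows therefore lie wholly inside these GENCODE spans and do not cover the sequence before the GENCODE starts. Psmb10 lies apart from them on chromosome 8 (105935735 to 105938444).

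Heart 2 was the highest for 8 of 12 antigen presentation and interferon genes and for 28.7% of all tested genes. Psmb9 had 6.45, 8.91, 5.61 and 6.05 CPM in hearts 1 to 4, and Psmb10 had 37.6, 42.8, 35.2 and 40.2 CPM, both highest in heart 2. Psmb8, at 17.7, 17.6, 14.4 and 14.6 CPM, was alike in hearts 1 and 2 and lower in hearts 3 and 4. Tap1 had 12.8, 19.3, 12.8 and 10.9 CPM, and Nlrc5, the transactivator of class I genes, had 8.81, 12.3, 8.27 and 8.59 CPM. Tap2 had 42.5 ± 5.22 CPM (SD, n = 4). Tap1, Tap2 and Nlrc5 were highest in heart 2. B2m, the light chain of class I molecules, did not share that order, with 182, 158, 200.5 and 185 CPM and heart 2 lowest. Named with their values known, H2-D1 was highest in heart 1, Erap1 in heart 4, and the interferon-gamma receptor gene Ifngr1 in heart 4, with 54.6, 39.7, 48.3 and 59.7 CPM and heart 2 lowest. Of 12 antigen presentation and interferon genes, 0 were called more variable than genes of similar level in edgeR's quasi-likelihood test, 5 had an unadjusted p under 0.05 (6% of all tested genes did), and the list summed to 757, 793, 717 and 764 CPM. The leukocyte and macrophage list summed to 620.2, 575, 564 and 629 CPM and was not highest in heart 2. After TMM scaling (trimmed mean of M-values), 1 of its 10 tested genes (Ptprc) was highest in heart 2. Another 4 (Csf1r, Cd68, Lyz2 and Cd74) were lowest there. The 5 fibroblast genes summed to 915, 936, 812 and 909 CPM, highest in heart 2. With TMM scaling 4 of them (Col1a1, Col1a2, Col3a1 and Pdgfra) were highest in heart 2, and Dcn was lowest there. Of the 5 endothelial genes 1 (Egfl7) was highest in heart 2, as was 1 of the 5 cardiomyocyte genes (Mb). The T cell gene Cd3e, at a mean of 0.446 CPM too low to be tested, had 3, 13, 4 and 4 counts. The part of any cell type in these values was not tested.

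**Figure D3:**
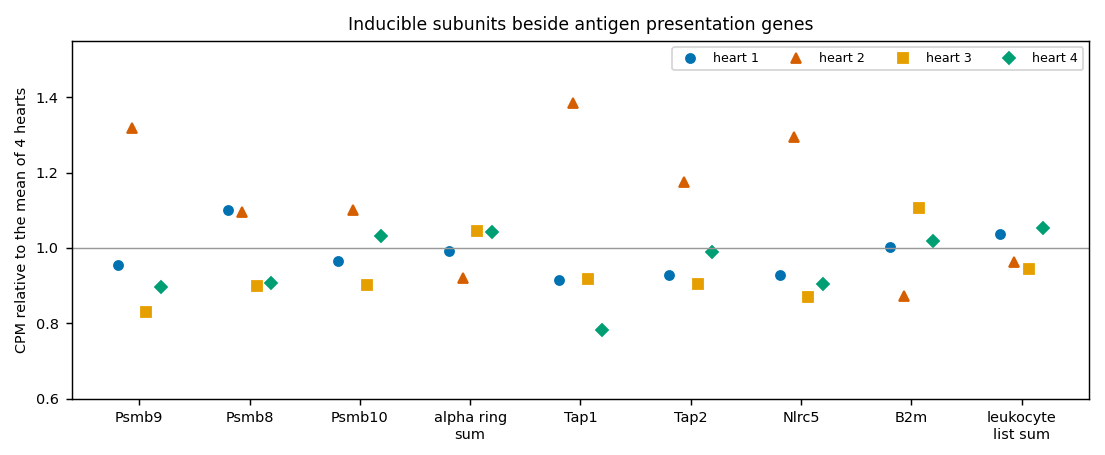
CPM of the inducible subunits, the alpha ring sum, 4 antigen presentation genes and the sum of leukocyte and macrophage markers in each of the 4 hearts, divided by the mean of the 4 hearts. Heart 2 is highest for Psmb9, Psmb10, Tap1, Tap2 and Nlrc5 and lowest for the alpha ring sum and B2m.

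Tissue-restricted subunits were at or near the limit of detection. Psma8, the alpha subunit of spermatogenic cells, had 1, 4, 2 and 0 counts in hearts 1 to 4, and 3 counts, the level that a count of 0 allows, are worth 0.195 to 0.285 CPM. Psmb11, the catalytic subunit of thymic cortical epithelium, had 17, 14, 5 and 24 counts, or 1.18, 1.01, 0.475 and 1.56 CPM, above that limit in every heart. The exact Poisson limits of 95%, which cover counting error only, ran from 0.154 to 1.11 CPM in heart 3 and from 0.687 to 1.89 CPM in heart 1, so those ranges overlap. The thymic epithelium genes Foxn1 and Prss16 had 0 or 1 count per heart and the testis genes Acrv1, Prm1 and Tnp1 had 0 counts in all. Psmb11 lies 3410 bases from Psmb5 on chromosome 14, on the opposite strand. The name match Psmc3ip had 33, 33, 15 and 35 counts, and 21.2% of its exon bases are shared with Mlx.

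Between hearts, none of the proteasome genes was called more variable than genes of similar level, and few of all tested genes were. A quasi-likelihood test in edgeR asked which genes spread more than others of similar level. In it, 0 of the 48 tested members were called at a Benjamini-Hochberg adjusted p under 0.05, against 0.445% of all 12360 tested genes (55). At an unadjusted p under 0.05 the count was 0 of 48 as well, against 6% of all tested genes. With no filter on low values it was 3 of 49 (Psma6, Psmb6 and Psmg1), against 1266 of all 17447 genes. Without heart 3 it was 2 of 48 (Psmb6 and Psmg1), against 747 of all 12365 genes. limma called 0 members and 50 of all 12360 genes. The dispersion outliers of DESeq2 included 0 members and 129 of all 12360 genes. The smallest adjusted p was 0.907 (edgeR), shared by Psma6, Psmb6 and Psmg1. In simulated data the test recovered 40.8% of planted 2-fold changes, so changes of that size or smaller can be missed. A p that misses the threshold does not show that levels were equal.

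Most subunits varied by a few percent. The median CV was 6.48% over the 48 members and 9.60% over all 12360 tested genes, and 34 members (70.8%) had a CV under 10%, as did 52.3% of all tested genes. Over the 4 hearts the smallest CVs were those of Psmc3 at 186, 187, 181 and 186 CPM (1.40%), Psmd4 at 112, 107, 109 and 108 CPM (1.95%) and Psmd2 at 242, 234, 232 and 233 CPM (1.97%). This order depends on single hearts: without heart 1, Psma4 (0.113%) and Psmd2 (0.400%) had the smallest CVs and Psmc3 had 1.65%. The widest were Psmb11 (42.8%), Psmb9 (21.9%) and Psmc3ip (21.3%), all with a mean under 7 CPM. Each of these rests largely on 1 heart: the CV of Psmb9 was 7.01% without heart 2, that of Psmc3ip 2.17% without heart 3 and that of Psmb11 22.8% without heart 3. After scaling by trimmed mean of M-values (TMM), the highest and lowest heart differed by more than 1.5-fold for 4 of 48 members (8.33%), which were Psmb11, Psmc3ip, Psmg1 and Psmb9, and for 19.1% of all tested genes. The difference passed 2-fold for Psmb11 alone (2.08% of members, 5.47% of all tested genes). Members were also more abundant, with a median of 42.7 CPM against 16.6 CPM over all tested genes. Relative to the trend with abundance, 29 members (60.4%) and 56.5% of all tested genes had a variance below the trend, and the median log2 variance ratio was -0.82 for members and -0.23 for all tested genes. Without heart 1 these were -0.46 and -0.43, and in hearts 1 and 4 alone -0.74 and -1.09, so the difference depends on which hearts are compared.

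Small departures from the 4-heart mean were counted by role after TMM scaling, beside all tested genes, of which 50.4% lay below their own mean in heart 2, 50.1% above it in heart 3 and 52.7% above it in heart 4. In the alpha ring 6 of 7 members were below their mean in heart 2 (median log2 deviation -0.17), with Psma4 the exception, and 6 of 7 were above it in heart 3 (median 0.11). The alpha ring sum was 277, 257, 291 and 291 CPM in hearts 1 to 4. The inducible subunits were above their mean in heart 2 in 3 of 3 cases (median 0.14) and in 0 of 3 in heart 3. The activators were above their mean in 0 of 4 cases in heart 3. In heart 4, 6 of 7 beta subunits (median only 0.02) and 4 of 4 of the 20S chaperones (median 0.14) were above their mean. The 17 subunits of the 19S cap that match the symbol rule had medians between -0.01 and 0.00 in the 4 hearts, and summed to 1517 ± 22.8 CPM (SD, n = 4). Heart 1 was the lowest for 5 members (20.5% of all tested genes), heart 2 for 18 (31.2%), heart 3 for 18 (28.3%) and heart 4 for 7 (20%). Heart 1 was the highest for 9 members (21.3% of all tested genes), heart 2 for 12 (28.7%), heart 3 for 13 (27.9%) and heart 4 for 14 (22.1%). Hearts 2 and 3, which share high Xist, were the highest pair for 3 of 48 members (6.25%) and for 18.5% of all tested genes, and hearts 1 and 4 for 9 members (18.8%) and 20.3% of all. Among the mixed pairs, hearts 3 and 4 were highest for 14 members (17.6% of all tested genes), hearts 1 and 2 for 10 (16.4%), hearts 2 and 4 for 8 (14.2%) and hearts 1 and 3 for 4 (12.9%). No test was made of these counts, since members of a complex can move together. Members with hearts 2 and 3 highest were Psma4, Psmd13 and Psmd14.

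**Figure D4:**
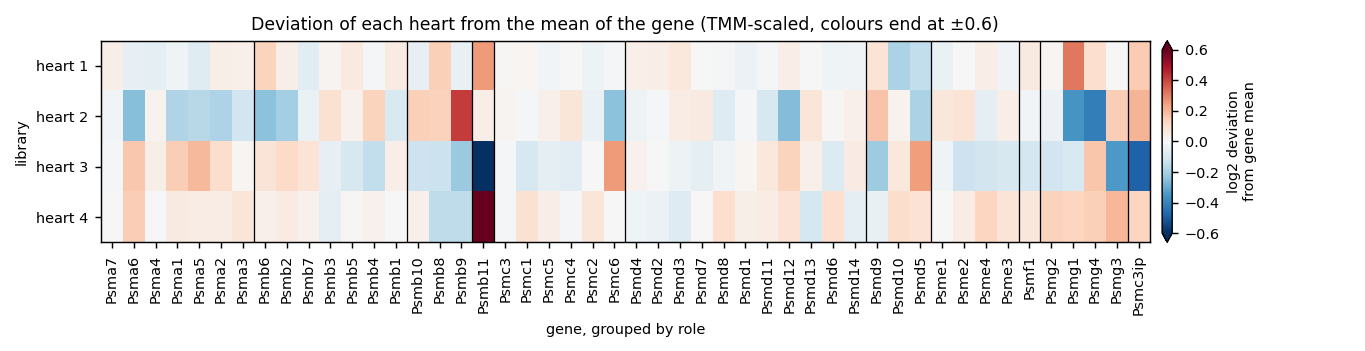
Log2 deviation of each heart from the mean of the gene for the 48 tested members, scaled by TMM; rows are hearts, columns are genes grouped by role, and colours end at the limits of the scale. In heart 2, 6 of 7 alpha subunits are below their mean; the 19S subunits are mostly pale, with Psmc6 and Psmd12 the exceptions, and Psmb11 has the widest swings.

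Partner genes of the proteasome outside the symbol rule had a median CV of 6.16%. Of 27 symbols listed, 24 were in the files under those names, all at 1 CPM or more, and 0 were called more variable by edgeR (1 at an unadjusted p under 0.05). The list summed to 2513, 2489, 2433 and 2480 CPM. Nfe2l1, which encodes the transcription factor that raises proteasome gene expression when the proteasome is impaired, was its highest gene at 886, 898, 809 and 885 CPM. Vcp, the ATPase that extracts and unfolds substrates ahead of the proteasome, had 427, 415, 427 and 418 CPM, and the shuttle factor Ubqln4 had 132, 123, 128 and 133 CPM. Each of these varied by under 5% (CV) between hearts.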

How the data were processed

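Polyadenylated RNA of 4 hearts was sequenced as single-end libraries without strand, per the labels' protocols. The authors deposited raw read counts for each gene symbol. The submitters' processing notes list TopHat2 2.0.10, TopHat, Bowtie2, HTSeq, edgeR, DESeq and the build mm10, without roles; the annotation is not given in the sources used here, nor is the handling of overlaps. The 5 closing rows name no gene and were left out; they held 9.16 ± 0.145% of listed reads (SD, n = 4), and alignments that were not unique alone held 8.33 ± 0.147% of listed reads.

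CPM were counts per 1000000 gene counts. Depth was 10523709 to 15359296 gene counts per library. Lengths, positions and overlaps came from GENCODE M21 (GRCm38), which held all 49 members. Levels had been planned per kilobase of exon. Merging all annotated exons was found to add retained introns, so the mRNA of the principal transcript (APPRIS, then support level, then length) was used, a choice made after seeing the data. Pseudogenes were found with BLAST 2.17.0 (95% identity over 200 bases), and promoter windows came from RefSeq (GRCm38.p6).

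Spread was tested with edgeR 4.0.16 in R 4.3.3 using TMM factors, no term but an intercept, a dispersion trend and a robust quasi-likelihood prior. Each quasi-dispersion over the trend was set against an F distribution on 3 and 7.43 degrees of freedom, upper tail, and adjusted over the 12360 genes whose mean reached 1 CPM. The script was tested on simulated data, where it recovered 40.8% of planted 2-fold, 94.5% of 4-fold and 100% of 8-fold changes. Alternatives included limma 3.58.1 and DESeq2 1.42.0. Pair ratios used counts plus 0.5 and an exact sign-flip permutation test, adjusted over 7 pairs.

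Values in every heart were given, by rule, for the catalytic pairs, activators, inhibitor, assembly chaperones, Psma8, Psmb11 and Psmc3ip, for the highest and lowest member per kilobase in the rings and the 19S groups, and for the 3 largest and 3 smallest CVs. From the partner list the 3 highest were named, and from antigen presentation Tap1, Tap2, B2m and Nlrc5. Members, lists and rule were chosen with earlier results of these data known.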

Additional observations from a re-analysis of the deposited data

Results flagged for a closer look

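Among 83 quantities checked over the 4 hearts (each member's CPM, the sums by role and list, the pair ratios and 7 genes named from the lists), 8 had a heart whose gap to the nearest other heart took up more than 0.829 of the whole range, the 95% critical value of Dixon's test for 4 samples. Chance gives about 1 in 20. For Psma4 heart 1 was lowest at 39.0 CPM, with hearts 2 to 4 between 40.86 and 40.95 CPM (gap share 0.954). For Psmc2 heart 4 was highest at 91.4 CPM (0.879), and for Psmg4 heart 2 was lowest at 3.09 CPM (0.881). For Psmc3ip heart 3 was lowest at 1.43 CPM (0.903), on 15 counts. The log2 ratio of Psmb9 over Psmb6 was highest in heart 2, at -4.13 against -4.98, -5.10 and -4.98 in hearts 1, 3 and 4 (0.878). For Nlrc5 heart 2 was highest at 12.3 CPM (0.864), for Nfe2l1 heart 3 was lowest at 809 CPM (0.856), and for the cardiomyocyte list heart 3 was highest at 96638 CPM (0.879).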

How the results depend on the processing

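The count of 0 members called more variable was the same under 12 alternatives of scaling, filter, prior, tool and libraries. Few genes were called in any of these, from 10 of 12360 without the robust prior to 258 of 17447 without the low-count filter. Of 63 alternative values of the pair ratios, 60 kept their sign. The log2 ratio of Psme4 over Psme3 reversed to -1.21 per coding kilobase, and that of Psmg3 over Psmg4 to 0.25 without division by length and 0.26 per coding kilobase, by the construction of the length used. Leaving Rn45s out of the library total moved the summed level to 3268 CPM. The inducible share of all proteasome transcripts was 2.83% per coding kilobase. The median CV of members was 3.89% without hearts 2 and 3, and 5.09 to 7.52% when leaving out each heart in turn. Members with a CV under 10% numbered 28 to 42 over the alternatives, against 34. The principal mRNA and coding lengths, and the alternatives for that count, were chosen after seeing the data. Per kilobase of merged exons the mean pair ratios kept their sign, with Psmg3 over Psmg4 at -2.13 and Psmb10 over Psmb7 at -0.51, but Psmg1 over Psmg2 was -0.04 and positive in 1 of 4 hearts (exact sign-flip permutation p = 0.625). No paired analysis was possible because the series has a single group. Members under 7 CPM rest on at most 124 reads per heart, and counting error limits what their spread can show.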
